A study of Mus musculus with 73 samples.

Results

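Dnmt1 knockout and wild-type epiblast of single mouse embryos at embryonic day 6.5 were compared across all autosomal genes, for total expression and for the share of each parental allele. The comparison used 10 of the 73 samples of the series, chosen by tissue, genotype and cross as the labels give them: 3 Dnmt1 knockout and 7 wild-type epiblast libraries, each from 1 embryo. All 10 embryos came from eggs of BDF1 females injected with CAST sperm, so that every BDF1 read was maternal and every CAST read paternal, and all developed in CD-1 foster mothers from the blastocyst stage. The knockout embryos were additionally injected at pronuclear stage with Cas9 mRNA and several guide RNAs against exons of Dnmt1. An embryo edited in this way can hold cells with different edits, and the labels give no genotype of the resulting alleles. The comparison held no embryos injected with Cas9 but not edited at Dnmt1. In all results below, effects of the injection and of DNA cutting therefore cannot be told apart from those of Dnmt1 loss. Epiblast was separated from the extraembryonic ectoderm (ExE) by bisection and freed of visceral endoderm with enzymes and a narrow capillary, and full-length cDNA came from the SMART-Seq v4 chemistry. Knockout embryos 1, 2 and 3 were male, female and female. Wild-type embryos 1, 2, 3 and 7 were male and embryos 4, 6 and 8 female. The labels do not say which embryos were handled together, so p-values measure the spread between these embryos.

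DNMT1 is the maintenance DNA methyltransferase: after each round of replication it copies the methylation of the parental strand onto the new one. In the early mouse embryo this activity keeps the marks that egg and sperm leave at imprinting control regions, which set the parental allele from which imprinted genes are transcribed. The same kind of methylation is acquired around implantation at the CpG-rich promoters of many germ cell genes. The epiblast gives rise to the embryo proper, and the ExE to part of the placenta.

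Promoters of 4 genes that the results below turn on are shown, and their methylation was not measured here. They are those of the germ cell genes Dazl and Sycp1, the imprinted gene Peg3, and Fkbp6, which is on both the germline and the imprinted list. Each sequence holds the 250 bases before the transcription start in the RefSeq table (build GRCm38.p6), 5′ to 3′ on the strand of the gene, which is the minus strand for all 4. Capitals mark CG dinucleotides, the sites of DNA methylation in mammals. The Dazl promoter (chr17:50293621-50293870) held 20 of them and that of Sycp1 (chr3:102936101-102936350) held 17. The Fkbp6 promoter (chr5:135350045-135350294) also held 17, and the Peg3 promoter (chr7:6730420-6730669) held 8.
Dazl: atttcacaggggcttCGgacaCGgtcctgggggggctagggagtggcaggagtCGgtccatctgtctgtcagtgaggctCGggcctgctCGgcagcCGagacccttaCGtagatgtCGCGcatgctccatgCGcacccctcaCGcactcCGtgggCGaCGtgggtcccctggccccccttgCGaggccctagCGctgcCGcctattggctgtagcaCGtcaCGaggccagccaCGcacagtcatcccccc
Sycp1: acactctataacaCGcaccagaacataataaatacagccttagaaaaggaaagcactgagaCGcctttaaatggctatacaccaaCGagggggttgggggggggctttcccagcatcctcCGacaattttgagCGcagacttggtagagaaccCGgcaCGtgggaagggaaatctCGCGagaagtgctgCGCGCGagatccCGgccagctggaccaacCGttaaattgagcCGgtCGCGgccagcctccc
Fkbp6: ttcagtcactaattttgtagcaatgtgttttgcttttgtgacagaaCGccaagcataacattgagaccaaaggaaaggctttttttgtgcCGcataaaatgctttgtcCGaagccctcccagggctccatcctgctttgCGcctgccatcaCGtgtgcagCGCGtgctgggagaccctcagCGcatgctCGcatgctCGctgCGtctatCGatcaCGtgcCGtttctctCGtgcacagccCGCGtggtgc
Peg3: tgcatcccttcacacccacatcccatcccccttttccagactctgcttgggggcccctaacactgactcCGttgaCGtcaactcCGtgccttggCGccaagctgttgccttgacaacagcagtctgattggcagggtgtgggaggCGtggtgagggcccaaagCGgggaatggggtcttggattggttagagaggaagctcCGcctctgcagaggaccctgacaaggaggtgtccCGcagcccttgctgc

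The libraries held 1141414 to 2132807 reads over polymorphisms in the knockout and 1311863 to 3028267 in the wild type, counted over all genes of the table. Levels are given below as counts per 1000000 of these reads (CPM). They rank a gene between embryos, not genes against each other, since they depend on the number of polymorphisms in a transcript. The maternal share of all reads was 56.9% to 57.5% in the knockout and 57.5% to 58.6% in the wild type. Wild-type embryo 8 stood apart: it had the fewest reads of its group, reads in 19951 autosomal genes against 13750 to 14609 in the other 6, and the highest summed visceral endoderm markers. Knockout embryo 3 was the most distant of its group, with a Pearson correlation of 0.90 and 0.91 with the other 2 across log2 CPM of genes, against 0.95 between those 2. Visceral endoderm markers (22 genes) summed to 831, 525 and 725 CPM in the knockout, against 127 to 369 in 6 wild-type embryos and 1244 in embryo 8. Apoe alone gave 425, 399 and 594 CPM of the knockout sums. Without it they were 406, 126 and 131 CPM, against 59.4 to 239.7 in the 6 wild-type embryos and 742 in embryo 8. Trophoblast markers (17 genes) summed to 128, 98.1 and 120 CPM against 61.3 to 87.0 and, in embryo 8, 138. Among the defining trophoblast genes, Elf5 had 3.28, 7.01 and 3.35 CPM against 0 to 3.81, while Wnt7b was at 0 and Pglyrp1 at 0 to 0.47 CPM in the knockout. Afp, a defining gene of visceral endoderm, had 59.5, 7.89 and 4.03 CPM in the knockout, against 0 to 20.2 CPM in 6 wild-type embryos and 268 in embryo 8. Apoa1, another defining gene, had 70, 6 and 11 reads in the knockout and 0 to 27, with a median of 1, per wild-type embryo. Amn, also a defining gene, had 66, 6 and 14 reads against 1 to 91, with a median of 10. The part of these cells in the results below was not tested, and in bulk tissue fewer cells of a type cannot be told apart from less RNA per cell. Among epiblast markers, Otx2, a transcription factor of the post-implantation epiblast, had 65.2 to 85.9 CPM in the knockout and 16.01 to 54.8 CPM in the wild type. Fgf5 had 608 to 1226 reads per knockout embryo and 712 to 1183 per wild-type embryo, not scaled to library depth. Each knockout library had fewer reads than those of the 6 wild-type embryos other than embryo 8, so these ranges do not compare levels. Pou5f1 had few reads, with 6, 3 and 33 in knockout embryos 1, 2 and 3 and 0 to 4 per wild-type embryo.

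The targeted transcript was reduced in all 3 knockout embryos. Dnmt1 had 7.97, 11.4 and 4.70 CPM in knockout embryos 1, 2 and 3, against a lowest value of 21.9, a median of 34.0 and a highest of 40.4 CPM in the wild type. The groups did not overlap, and the log2 fold change was −2.26 with a standard error of 0.30 (edgeR quasi-likelihood test, adjusted p 0.00059). Of 20 listed members of the methylation machinery with enough reads, 2 rose (Usp7, a deubiquitinase that binds DNMT1, and Mbd3, a subunit of the NuRD complex) and 2 fell (Dnmt1 itself and Mbd1, a reader of methylated CpG), shares near the 6.93% and 7.09% of all tested genes. Dnmt3b, the main de novo methyltransferase of the epiblast, had a log2 fold change of −0.02 and Dnmt3a one of −0.18. Uhrf1, which recruits DNMT1 to replicated DNA, had 0.45, and these 3 did not pass the test. The calls of Usp7, Mbd1 and Mbd3 were lost when single embryos were left out, with adjusted p of up to 0.23, 0.195 and 0.246. Mbd3 overlaps the predicted gene Gm30823 on the genome, with 1683 and 1692 reads over the 10 libraries, so their reads may be shared.

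Total expression changed in 1386 of 9885 genes tested (14.0%) at an adjusted p under 0.05 by edgeR's quasi-likelihood test with Benjamini-Hochberg adjustment. Of these, 685 rose (6.93%) and 701 fell (7.09%), and 1066 had no overlap between the groups. Falls of at least 8-fold were fewer than rises of that size, 14 against 67, while changes of at least 2-fold numbered 464 falls and 548 rises. The near-equal split depended on the scaling. With TMM scaling, which aligns the bulk of genes, the median log2 fold change of all tested genes was 0.0008, and with library totals alone it was 0.21, with 1191 rises and 478 falls. Without wild-type embryo 8 the count was 2369, 1131 higher and 1238 lower, and it held 1382 of the 1386 genes. Without knockout embryo 3 the count was 637, and without knockout embryo 1 it was 724.

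**Figure D1:**
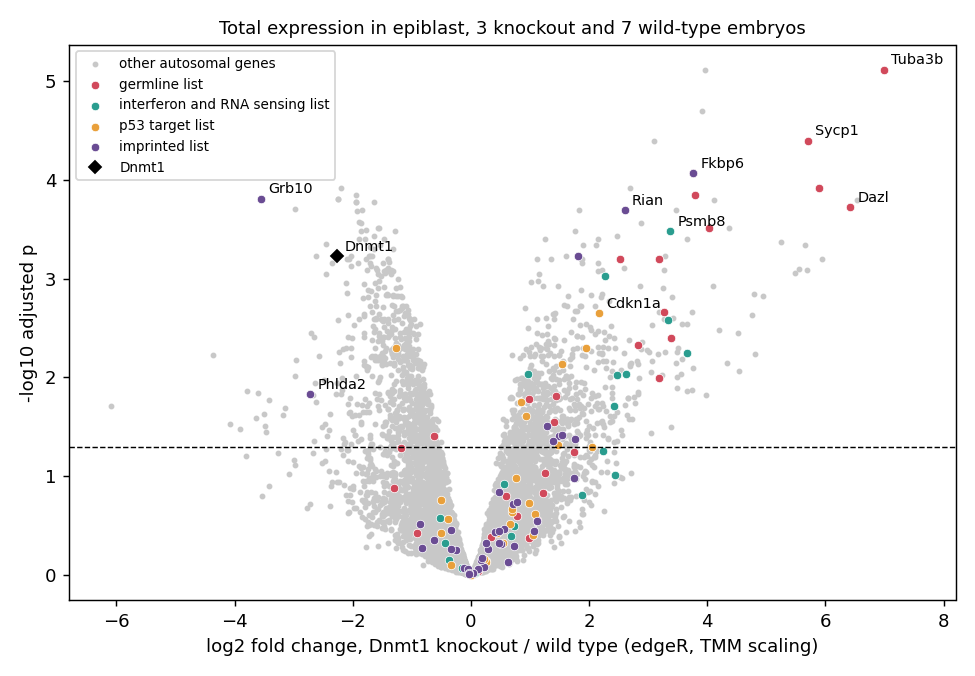
Log2 fold change of total expression (knockout over wild type, x axis) against −log10 of the edgeR adjusted p (y axis) for 9885 autosomal genes, with 4 gene lists in colour and the threshold of 0.05 as a dashed line. Germline list genes such as Tuba3b, Dazl and Sycp1 lie among the largest rises, and Grb10 has the most negative value among imprinted genes.

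Germ cell genes made up 4 of the 12 largest rises among genes with at least 10 CPM in the knockout and no overlap between the groups. The germline list had 64 autosomal members in the table, genes of meiosis, the piRNA pathway and germ cell RNA control. Of these, 16 rose, 1 fell, 13 were tested without passing and 34 had too few reads to be tested. Because a gene can pass the read filter through the group in which it is high, the tested members are not a sample of the list. With no filter, 18 of 64 members rose, beside 660 of all autosomal genes with a read. The table held 29557 autosomal genes, of which 5793 had no read in the 10 libraries. With 10 reads required in 3 libraries of each group, 8 of 15 members rose, beside 634 of the 7161 genes that met this limit. With the main filter, the share of rises among all tested genes was 6.93%.

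Dazl, which encodes an RNA-binding protein that licenses germ cell development, had 14.1, 7.01 and 12.7 CPM in the 3 knockout embryos. In the wild type it was at 0 in 6 embryos and at 0.363 CPM, 1 read, in the other. The 57 knockout reads against that 1 read gave a ratio of CPM of 202, with a 95% exact interval of 34.8 to 8.1e+03 that covers counting error only. Sycp1 encodes the transverse filament of the synaptonemal complex, which joins homologous chromosomes in meiosis. It had 81.1, 56.9 and 34.9 CPM in the knockout, against a lowest value of 0, a median of 0.404 and a highest of 2.53 CPM in the wild type (log2 fold change 5.70, standard error 0.50, edgeR adjusted p 4e-05). The lowest knockout embryo thus lay far above the highest wild-type embryo for both genes.

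Fkbp6, a co-chaperone of the piRNA pathway, had 129, 156 and 262 CPM against 5.03, 10.9 and 21.3 CPM as the lowest, median and highest wild-type values (log2 fold change 3.76, standard error 0.35, edgeR adjusted p 8.5e-05). Tuba3b, a testis α-tubulin, had 39.4, 33.3 and 58.4 CPM against 0, 0.404 and 0.762 CPM (log2 fold change 6.99, standard error 0.50, edgeR adjusted p 7.7e-06). Its near-identical copy Tuba3a had 160, 99.9 and 180 CPM against 0, 1.68 and 6.06 CPM (log2 fold change 5.89, standard error 0.59, edgeR adjusted p 0.00012). Reads of the 2 tubulin genes may have been split between them, so they are uncertain as separate genes. For these 3 genes, as for Sycp1 and Dazl, every knockout embryo exceeded every wild-type embryo. Wild-type embryo 8, whose visceral endoderm markers were the highest of all 10 embryos, had 0 CPM of Dazl, 0.762 of Tuba3b and 1.52 of Sycp1.

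The other 11 members that rose had log2 fold changes from 0.98 to 4.03. They were Rpl10l, a testis paralog of a ribosomal protein gene, Tex19.1 and Tex15, which act in transposon silencing, and Tdrd12, a Tudor protein of the piRNA pathway. Sycp2 and Hormad1 encode proteins of the meiotic chromosome axis, Sohlh2 a germ cell transcription factor and Slc25a31 a germ cell ADP/ATP carrier. Ddx4, the germ cell RNA helicase also known as Vasa, Zcwpw1 and Rnf17 completed the group. The member that fell, Syce2, had a log2 fold change of −0.62 with overlapping groups. Among listed genes that did not pass, Sycp3 had −1.18 and Dmc1 0.59. The 2 cell stage genes on another list were almost unmeasured: of 22 in the table, 14 had no read in any of the 10 libraries and 1, Dppa3, was tested (log2 fold change 0.12).

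**Figure D2:**
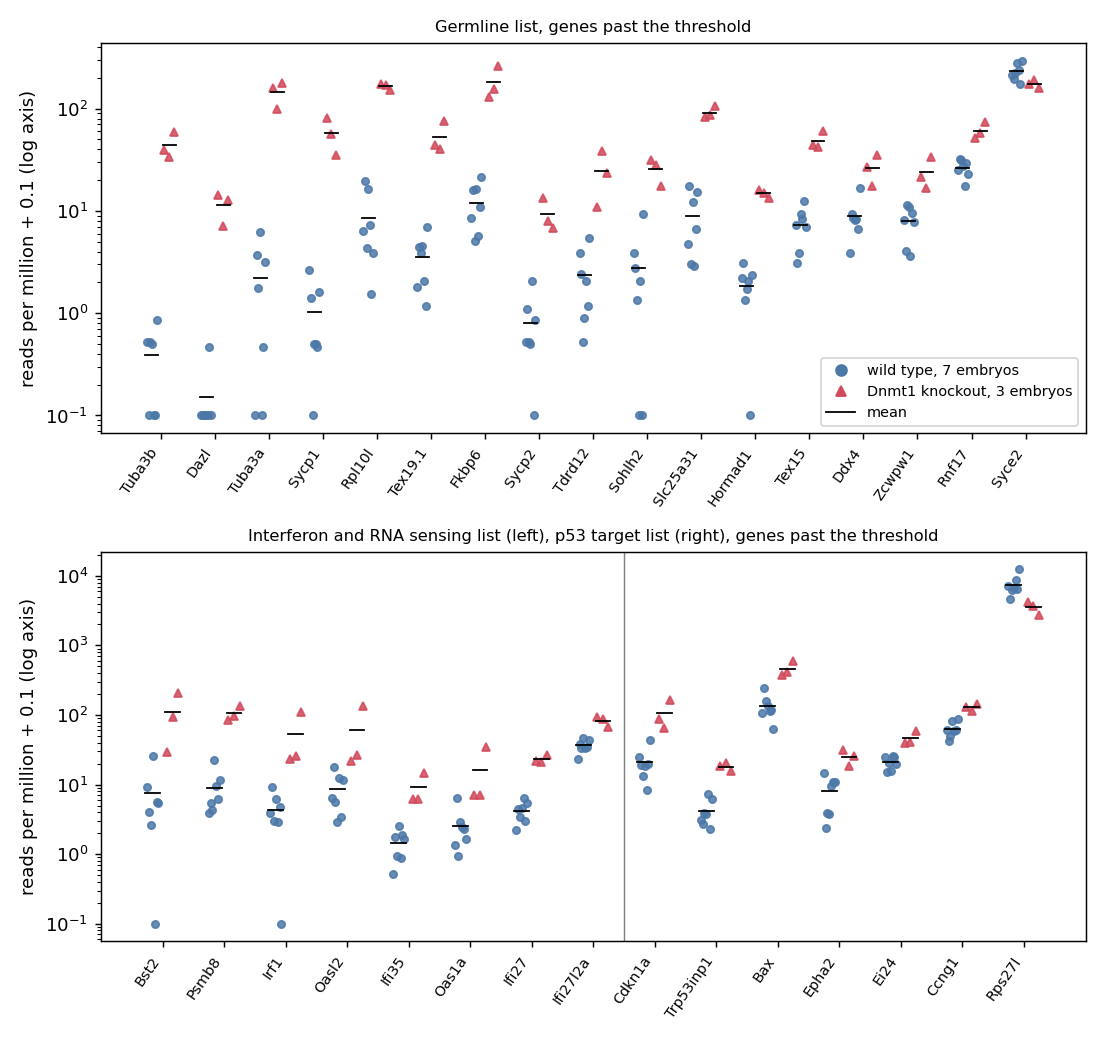
CPM plus 0.1 (log axis) in each of the 7 wild-type (circles) and 3 knockout (triangles) epiblast libraries, with the mean as a bar, for list members past the threshold. Most germline genes sit above the wild-type range in all 3 knockout embryos, while Syce2 and Rps27l sit lower in the knockout.

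Promoters of the germline list more often held the letters CACGTG, the E-box bound by several bHLH factors, than promoters at large. The motif was searched in windows from 250 bases before to 50 after the start. As a palindrome it reads the same on both strands. It was present in 18 of 53 matched germline-list promoters (34.0%) and in 5 of the 14 matched members that rose (35.7%). Over all 27025 promoters in the table it was present in 7.24%. Among tested genes it was present in 14.3% of promoters of genes that rose, 9.98% of those that fell and 10.1% of those not called. In the upstream sequences shown above, Sycp1 had 1 match, Fkbp6 had 2 and Dazl and Peg3 had 0. The median number of CG dinucleotides per window was 20 for genes that rose, 21 for genes that fell and 22 for genes not called. Genes that rose on the interferon list had a median of 7. TGCCGC, the core recognised by the imprint-protecting factor ZFP57, was present on either strand in 4 of 13 matched promoters of the imprinted-list genes whose allelic ratio changed (30.8%). It was present in 11.6% of all promoters and in 19.9% of those of genes tested for total expression. These matches describe the windows and are no evidence of binding.

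The other 8 of the 12 largest rises were low or silent in wild-type epiblast. Bglap3, a member of the osteocalcin gene cluster, had 20.6, 18.4 and 34.9 CPM in the knockout and 3 reads in all 7 wild-type embryos together, a ratio of 138 with a 95% exact counting interval of 46.1 to 679. Pdha2, the testis copy of a pyruvate dehydrogenase subunit, had 20.6, 18.4 and 18.8 CPM against a wild-type median of 0 and a highest value of 3.05 CPM (log2 fold change 5.48, edgeR adjusted p 0.00087). Cyp2b23, a cytochrome P450 gene, had 192, 97.2 and 263 CPM against 0, 3.35 and 12.9 CPM as the lowest, median and highest wild-type values (log2 fold change 5.25, edgeR adjusted p 0.00043). Tas1r1, a taste receptor gene, had 19.22, 11.4 and 10.1 CPM against a highest wild-type value of 3.05 CPM. The noncoding or predicted genes A530064D06Rik, Gm31579, Gm4316 and CN725425 made up the rest of the 12, with 6.04 to 20.8 CPM in the knockout and at most 4.57 CPM in any wild-type embryo. The highest values of Pdha2, Tas1r1 and Gm4316 in the wild type were those of embryo 8.

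Of 45 listed genes of interferon signalling and antigen presentation in the table, 20 were tested, 8 rose and 0 fell, against 6.93% and 7.09% of all tested genes. As for the germline list, a member can be tested through its reads in the knockout alone. With no filter on low counts, 12 of 44 rose, beside 660 of all autosomal genes with a read. The count rested partly on knockout embryo 3, without which 3 passed; without wild-type embryo 8, 11 passed. Psmb8, a subunit of the immunoproteasome, had 85.8, 96.4 and 136 CPM against 3.79, 6.17 and 22.2 CPM as the lowest, median and highest wild-type values (log2 fold change 3.37, standard error 0.41, edgeR adjusted p 0.00033). Bst2, which tethers enveloped virus particles, had 29.1, 93.7 and 207 CPM against 0, 5.34 and 25.4 CPM (log2 fold change 3.66, standard error 0.73, edgeR adjusted p 0.0056). Irf1, an interferon-regulated transcription factor, had 23.0, 25.4 and 109 CPM against 0, 3.79 and 9.25 CPM (log2 fold change 3.33, standard error 0.58, edgeR adjusted p 0.0026). Knockout embryo 3 had the highest value for all 3 genes, and the groups did not overlap.

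Ifi27 had 21.6, 21.0 and 26.2 CPM against 2.11, 4.29 and 6.33 CPM (log2 fold change 2.27, edgeR adjusted p 0.00094), but overlaps Ifi27l2a on the genome, so reads of the 2 genes cannot be fully separated. Ifi27l2a, Oas1a and Oasl2, which encode an interferon-induced protein and members of the oligoadenylate synthetase family, and Ifi35 were the other 4. Their log2 fold changes ran from 0.97 to 2.63. The class I antigen genes H2-K1 and H2-D1 had log2 fold changes of 2.24 and 2.44 and did not pass. The transcript of β2-microglobulin, B2m, had −0.52 and did not pass. When knockout embryo 3 was left out, the adjusted p was 0.0637 for Bst2 and 0.0574 for Irf1, while Psmb8 and Ifi27 passed in every alternative run.

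Among targets of the tumour suppressor p53, 6 of 26 tested genes rose and 1 fell (38 were in the table), against 6.93% and 7.09% of all tested genes. Cdkn1a, which encodes the cell cycle inhibitor p21, had 87.7, 64.8 and 164 CPM against 8.31, 19.15 and 43.5 CPM as the lowest, median and highest wild-type values (log2 fold change 2.17, standard error 0.37, edgeR adjusted p 0.0022). Bax, a pro-apoptotic BCL2 family gene, had 376, 411 and 594 CPM against 63.3, 118 and 244 CPM (log2 fold change 1.54, standard error 0.32, edgeR adjusted p 0.0072). Trp53inp1, a p53-induced nuclear protein gene, had 18.3, 20.1 and 15.4 CPM against 2.18, 3.63 and 7.12 CPM (log2 fold change 1.95, standard error 0.38, edgeR adjusted p 0.005). All 3 lay above the wild-type range in every knockout embryo. Epha2, Ei24 and Ccng1 were the other members that rose, with log2 fold changes of 1.47, 0.94 and 0.84. The gene that fell was Rps27l, a ribosomal protein paralog, at 4211, 3675 and 2754 CPM against 4680 to 12416 CPM in the wild type. Without knockout embryo 3, 2 of the list rose.

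Stress genes on a separate list showed 4 rises and 0 falls among 9 tested, where 6.93% of all tested genes rose: the metallothioneins Mt1 and Mt2, the haem oxygenase gene Hmox1 and the transcription factor gene Atf4. The rises of Mt1, Mt2 and Atf4 did not overlap the wild type, and that of Hmox1 did. Each of the 4 lost its call in at least 1 alternative. In the cell cycle list, 3 of 21 tested genes rose and 1 fell, against 6.93% and 7.09% of all tested genes. Mki67, a proliferation antigen, had 311, 315 and 204 CPM against 105 to 141 CPM, with a log2 fold change of 0.93 (edgeR adjusted p 0.0052). Plk1, a mitotic kinase, had a log2 fold change of 0.81, and Ccne2, cyclin E2 of the G1/S transition, one of −1.23 (edgeR adjusted p 0.0047). Ccnd3 had 0.71 and lost its call in 10 of 18 alternatives.

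In the list written under the name of primed epiblast, 5 of 21 tested members rose and 1 fell, against 6.93% and 7.09% of all tested genes. Dppa4, a nuclear protein of pluripotent cells, had 43.1, 54.3 and 185 CPM against 2.77, 6.32 and 11.7 CPM as the lowest, median and highest wild-type values (log2 fold change 3.65, standard error 0.46, edgeR adjusted p 0.00039). Its partner Dppa2, a neighbour on chromosome 16, had 17.8, 15.8 and 57.0 CPM against 0.363, 1.21 and 2.94 CPM (log2 fold change 4.37, standard error 0.53, edgeR adjusted p 0.0003). Both were highest in knockout embryo 3, and neither overlapped the wild type. Mean levels of Dppa4 and Dppa2 in the wild type were 6.63 and 1.25 CPM in epiblast, against 491 and 66.5 CPM in ExE. The name of the list therefore does not describe either gene in these data. Gdf3, a TGF-β family ligand with 0 to 11 reads per wild-type embryo, also rose (log2 fold change 2.75). So did its relative Nodal (1.08) and the chromatin factor gene Utf1 (1.62). Sall4, a zinc finger factor, fell, with 346, 310 and 264 CPM against 450 to 636 CPM (log2 fold change −1.03, edgeR adjusted p 0.0026). Fgf5, the standard marker of primed epiblast, had a log2 fold change of 0.31 and did not pass.

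None of the 7 tested naive pluripotency genes passed edgeR's test or DESeq2's, and 2 had an unadjusted edgeR p under 0.05. Nr5a2 had a log2 fold change of −1.15 (adjusted p 0.17) and Sox2 one of −0.65 (adjusted p 0.12). Of 18 tested primitive streak genes, 1 fell and 0 rose, near the 7.09% of all tested genes that fell. It was Sp8, a zinc finger transcription factor, which fell from a median of 27.6 CPM to 5.63, 4.38 and 2.68 CPM (log2 fold change −2.57, edgeR adjusted p 0.006). The streak marker T had −0.28 and Eomes 0.66, neither passing. The anterior neural gene Hesx1 fell (log2 fold change −2.63), the 1 call among 3 tested neural ectoderm genes. Of the lists for other cell types, trophoblast markers gave 1 rise (Krt18) and 1 fall (Fgfr2) among 7 tested. Visceral endoderm markers gave 1 rise (Apoe) among 15, near the 6.93% of all tested genes that rose. The counts of the neural and trophoblast lists rest on few genes and are read against the same 6.93% and 7.09%. Krt18 lost its call in 9 of 18 alternatives, Apoe in 10 of 18 and Fgfr2 in 3 of 17. None of the 6 parietal endoderm genes passed edgeR's test or DESeq2's, with 1 at an unadjusted edgeR p under 0.05, the lowest p being those of Sparc (log2 fold change 1.13) and Lamb1 (−0.39). Sparc passed in 4 alternatives, with an adjusted p down to 0.015. Nor did the decidua gene Dcn (−0.32) or the single tested Hox gene, Hoxb1 (−0.44). Among 38 Hox genes in the table, 25 had no read in any of the 10 libraries, and none of 58 clustered protocadherin genes had enough reads to be tested.

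Of 14 falls of at least 8-fold, 11 were in genes under 10 CPM in the wild type and 2 had overlapping groups, which left Grb10 as the largest fall among genes that met both limits. Grb10, an adaptor that dampens insulin and growth factor signalling and is transcribed from the maternal allele outside the brain, had 2.34, 6.13 and 3.35 CPM in the knockout. The lowest, median and highest wild-type values were 29.0, 35.5 and 51.0 CPM (log2 fold change −3.55, standard error 0.38, edgeR adjusted p 0.00015). It overlaps the predicted gene LOC102631979, and strand was not recorded as used. Phlda2, an imprinted growth suppressor of the placenta, had 21.6, 22.8 and 9.39 CPM against 23.4, 80.0 and 209 CPM (log2 fold change −2.72, standard error 0.65, edgeR adjusted p 0.015). Its groups were separated by a small margin, and its adjusted p rose to 0.0815 when single knockout embryos were left out. Mgst1, a microsomal glutathione transferase gene, had 8.44, 12.3 and 4.70 CPM against 45.0 to 73.5 CPM (log2 fold change −2.98, standard error 0.33, edgeR adjusted p 0.0002). Acbd7, an acyl-CoA binding protein gene, had 6.10, 1.75 and 0 CPM against 6.93 to 38.1 CPM (log2 fold change −2.98). Besides Sp8, the other 7 of the 12 were the noncoding or predicted genes 2610316D01Rik, Gm40674, B230217C12Rik, Gm35775, 9130023H24Rik, 3110045C21Rik and A730063M14Rik. Their log2 fold changes ran from −2.70 to −2.38. Gm40674 lies within Col13a1 and Gm35775 overlaps Pth1r, so their reads may be shared.

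The parental share of reads changed in 65 of 7161 genes tested (0.908%) by edgeR's quasi-likelihood test on the reads of each allele. In 27 (0.377%) the maternal share rose and in 38 (0.531%) it fell. Of these, 17 were on the imprinted list, of which 28 members were tested, and 48 were not. Without wild-type embryo 8 the count was 102, which held all 65, and 17 of them were again on the imprinted list. With each gene's log2 ratio tested by limma, 25 genes passed, 11 of them imprinted.

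All 17 imprinted genes moved toward equal shares. Most of them had nearly all wild-type reads from a single parental allele, so a change there could hardly go the other way. The shared direction is therefore no separate evidence. The groups did not overlap at 16 of the 17, against 4.16% of all genes tested, called or not. Among the 48 called genes outside the list, 46 had no overlap either, so this was not particular to imprinted genes. Peg3, a paternally expressed zinc finger gene, had a maternal share of 59.5%, 58.8% and 65.7% in the knockout, against 0% to 2.26% in the wild type (61.3% ± 3.81, SD, n = 3, against 0.897% ± 0.849, n = 7, edgeR adjusted p 3.1e-12). In Snrpn-Snurf, the paternally expressed gene at the Prader-Willi imprinting centre, the maternal share was 40.9%, 36.6% and 42.1% against at most 0.986% (edgeR adjusted p 6.3e-12). Impact, a translational regulator gene, reached 46.8%, 47.2% and 49.0% against 1.52% to 5.46% (edgeR adjusted p 1.5e-10). No knockout embryo overlapped the wild type for any of these 3 genes.

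The same shift was seen at 3 noncoding RNA genes of the Dlk1-Dio3 domain on chromosome 12, where the maternal allele is the active one. Meg3 fell from 98.6% to 100% maternal in the wild type to 58.1%, 55.4% and 61.5% in the knockout (edgeR adjusted p 1.5e-10). Rian was 100% maternal in all 7 wild-type embryos and 57.7%, 53.0% and 67.9% in the knockout (edgeR adjusted p 0.00023). Mirg was 93.3% to 100% maternal in the wild type and 72.4%, 58.8% and 62.5% in the knockout (edgeR adjusted p 0.028), and lost its call in 8 of 13 alternatives. H19, the maternally expressed RNA beside Igf2, fell from 75.5% to 96.6% maternal to 43.5%, 59.2% and 71.7% (edgeR adjusted p 0.032), and lost its call in 7 of 18 alternatives.

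The other paternally expressed genes in the group ranged more widely in the knockout. Mcts2, a retrogene, had a maternal share of 60.5%, 55.6% and 45.3% (wild type at most 2.65%), and Snhg14, the long host transcript at the Snrpn locus, 53.9%, 44.5% and 53.2% (at most 4.44%). Kcnq1ot1, the antisense RNA that silences its domain in cis, had 58.5%, 51.3% and 60.6% against 0% to 24.7%. Fkbp6 had 56.7%, 60.7% and 57.4% against 0% to 30.0%. Mest, a hydrolase-family gene, had 58.3%, 30.5% and 50.0% against at most 7.59%. Magel2 had 34.9%, 20% and 57.9% against 0% in all 7 wild-type embryos. Sgce, the ε-sarcoglycan gene, spread from 25.7% to 82.4%. Shares in the knockout stayed below 50% in most embryos at Zdbf2 (30.8%, 28.9% and 51.5%) and in all 3 at Slc38a4, an amino acid transporter gene (30.6%, 24.2% and 34.1%). Slc38a4 is one of the noncanonically imprinted genes, whose silencing in extraembryonic tissue is known to rest on histone marks. Phlda2 was the 1 gene of the 17 whose groups overlapped, with a maternal share of 69.6%, 61.5% and 92.9% against 91.4% to 95.8%. The call of Phlda2 was lost in 4 of 16 alternatives, that of Sgce in 3 of 16 and that of Kcnq1ot1 in 2 of 18, and Fkbp6 and Mest lost theirs with limma.

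**Figure D3:**
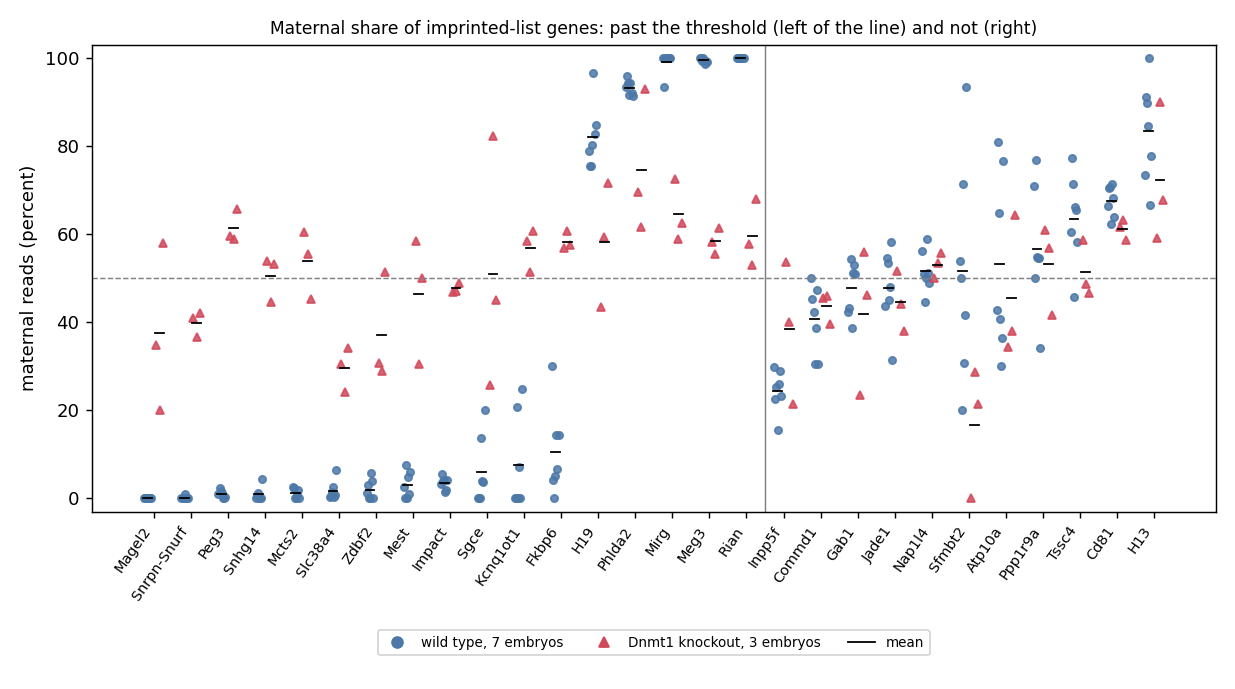
Maternal share of reads (percent) in each wild-type (circles) and knockout (triangles) epiblast library for the 28 imprinted-list genes tested, with the mean as a bar and 50% dashed. Left of the vertical line, genes near 0% or 100% in the wild type lie closer to 50% in the knockout, and right of it the groups overlap or nearly so.

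The remaining 11 tested members of the imprinted list did not pass, and 9 of them had mean wild-type shares between 40.6% and 67.6%. The other 2 were Inpp5f, at 15.5% to 29.9% in the wild type and 53.7%, 40.0% and 21.3% in the knockout, and H13, at 66.7% to 100% and 59.1%, 90.0% and 67.7%. Of the list's 64 autosomal members in the table, 36 had too few reads for the allelic test.

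The shift toward equal shares came mainly with reads from the allele that is silent in the wild type. The silent allele exceeded its wild-type range in all 3 knockout embryos at 15 of the 17 genes, the exceptions being H19 (2 of 3 embryos) and Phlda2 (0 of 3). At Peg3 the maternal allele rose from 1.22 ± 0.867 CPM (SD, n = 7) to 397 ± 197 CPM (n = 3), while the paternal allele had 221 ± 121 and 264 ± 153 CPM. At Snrpn-Snurf the silent allele rose from 0.288 ± 0.763 to 128 ± 37.2 CPM, beside 196 ± 81.3 and 191 ± 35.8 CPM from the active one. The active allele had a median of 97.4% of its wild-type mean over the 17 genes, with a range from 13.4% to 714%. It lay above the wild-type range in all 3 knockout embryos at Fkbp6 (76.2 ± 30.6 against 10.7 ± 5.63 CPM), Meg3 (118 ± 21.3 against 50.3 ± 17.99 CPM) and Rian (38.9 ± 18.2 against 8.82 ± 2.50 CPM). It lay below that range in all 3 at Impact (80.5 ± 1.95 against 133 ± 12.02 CPM) and at Phlda2 (12.6 ± 3.38 against 94.2 ± 64.0 CPM). The more equal share of Phlda2 was therefore accompanied by a loss of maternal reads, with the paternal allele at 5.33 ± 4.18 against 7.13 ± 5.27 CPM. Grb10 also lost maternal reads, with 37.1 ± 9.02 CPM in the wild type and 3.56 ± 2.26 CPM in the knockout, and its 17 knockout reads were too few for the allelic test.

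The total expression of the 17 genes rose in 7 and fell in 1. The whole imprinted list gave 8 rises and 2 falls among 40 tested genes, against 6.93% and 7.09% of all tested genes. The rises were Fkbp6, Rian, Meg3, Kcnq1ot1, Mirg, H19, Sfmbt2 and Peg3, and the falls Grb10 and Phlda2. Rian had 45.5, 57.8 and 87.9 CPM against 4.57, 9.28 and 11.6 CPM as the lowest, median and highest wild-type values (log2 fold change 2.60, standard error 0.29, edgeR adjusted p 0.0002). Meg3 had 236, 220 and 155 CPM against 29.3, 50.9 and 86.1 CPM (log2 fold change 1.82, standard error 0.25, edgeR adjusted p 0.00059). Peg3 had 804, 917 and 262 CPM against 87.5, 212 and 393 CPM, so that knockout embryo 3 lay within the wild-type range.

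**Figure D4:**
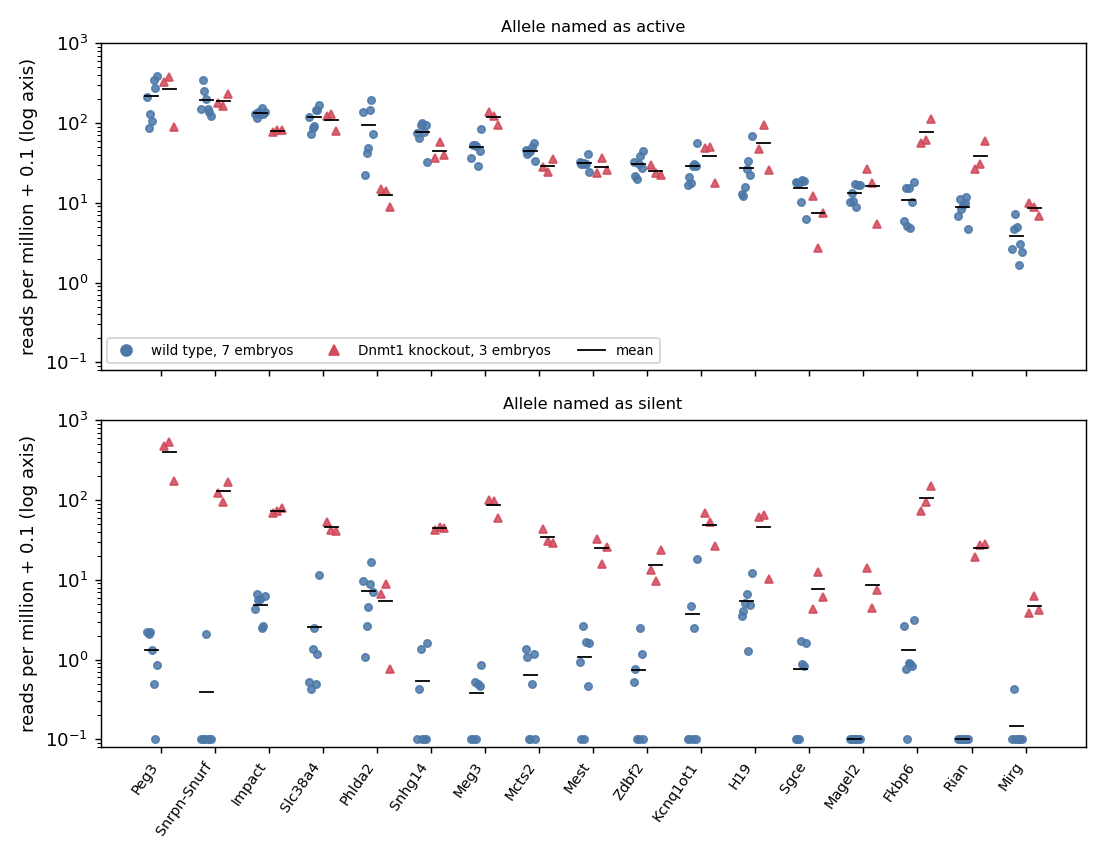
CPM plus 0.1 (log axis) from the active allele (top) and the silent allele (bottom) of the 17 imprinted-list genes past the allelic threshold, in each wild-type (circles) and knockout (triangles) epiblast library, with the mean as a bar. Silent alleles lie above the wild-type range in the knockout except at Phlda2 and in 1 embryo at H19, while most active alleles overlap.

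Outside the imprinted list, 48 genes changed in allelic share, by 1.68 to 44.6 percentage points, and 35 of them by less than 20 points. They were deeply covered, with a median over genes of 634 reads per library against 93.2 for all genes tested. In 33 of the 48 the share moved closer to equal. Among the 7133 tested genes off the list, 47.4% had a knockout mean closer to equal than the wild-type mean. The reciprocal wild-type cross, a CAST mother and a BDF1 father in 4 epiblast libraries from natural mating, was used to describe the origin of the bias. Genes were taken to follow the strain or the parent where both crosses lay at least 20 points from 50%. Of the 48, 20 followed the strain, of which 18 moved closer to equal. Of all 579 tested genes that followed the strain off the list, 63.7% did. The class and the distance from equal use the same wild-type libraries, which can favour a move toward equal. These counts are therefore no separate evidence. A further 27 fell in neither class. Of the 48, 11 were also called lower in total expression and 2 higher.

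Among genes that became more maternal, Gja1, which encodes the gap junction protein connexin 43, had a maternal share of 53.2%, 42.2% and 55.1% against 13.6% to 25.5% in the wild type (edgeR adjusted p 2.8e-05). Sap18, a histone deacetylase complex subunit, had 58.5%, 56.0% and 58.3% against 17.9% to 34.6% (edgeR adjusted p 0.00023). Both followed the strain, with 77.8% and 74.5% maternal in the reciprocal cross. Total reads of Gja1, from libraries of unequal depth, were 205, 128 and 198 in the knockout and 938 to 1247 in the wild type. Those of Sap18 were 118, 91 and 72 against 153 to 299. A larger maternal share therefore need not mean more maternal reads. Pdrg1 rose to 83.2%, 87.5% and 86.1% from 65.9% to 75.4%, away from equal. Dpysl3, Trim25, Klhdc4 and Nup155 gained 16.5 to 22.0 points and lost their calls in some alternatives. The single gene of the 48 that followed the parent was 2400006E01Rik, with a maternal share of 20%, 29.2% and 31.9% against 6.90% to 15.3% and 11.2% in the reciprocal cross. Its call (edgeR adjusted p 0.037) was lost in 10 of 18 alternatives.

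Among genes that became more paternal, Spin1, a reader of histone methylation, fell from 78.3% to 91.6% maternal in the wild type to 66.1%, 68.3% and 52.7% (edgeR adjusted p 0.00023). It followed the strain, and so did Aff3, Dnaaf5 and Twf1. Zfp691, a zinc finger gene, fell from 44.6% to 82.8% to 7.69%, 29.6% and 19.4% without a bias in the reciprocal cross (58.2%), but lost its call in 8 of 17 alternatives. Alg8 and St7l, also without such a bias, lost theirs in 10 of 16 and 11 of 17.

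The response was compared with that of the ExE of the same embryos, as the difference of the 2 knockout effects. The ExE libraries are named here as labelled, because Dnmt1 stood at 47.9, 34.5 and 5.16 CPM in the 3 labelled Dnmt1 knockout, against 35.7 to 62.2 CPM in 7 wild-type ExE libraries. The effect on total expression differed in 33 of 10943 genes (0.302%), being higher in epiblast in 31, of which 25 had also risen in epiblast. On the germline list 7 of 37 tested genes differed. Platr5, a long noncoding RNA gene, had 138, 195 and 197 CPM in knockout epiblast against 5.94, 10.5 and 33.5 CPM as the lowest, median and highest wild-type values. In ExE it had 2.04 to 2.92 CPM in the knockout and 2.40 to 9.29 in the wild type (difference of log2 fold changes 4.51, edgeR adjusted p 0.00018). Dppa4 was already high in wild-type ExE at 349 to 568 CPM and had 279 to 468 CPM in the ExE labelled knockout (difference 4.03, edgeR adjusted p 0.00018). Dppa2 had 45.5 to 106 and 28.0 to 65.5 CPM (difference 5.13, edgeR adjusted p 0.00033). Sycp1 had 8.19 to 27.9 and 8.77 to 22.4 CPM in wild-type and labelled knockout ExE (difference 5.65, edgeR adjusted p 0.00045). In all 4 genes the ExE ranges overlapped while the epiblast groups did not. No gene that was lower in epiblast by this test had also fallen there. The count of 33 was 17, 14 and 9 without embryo 1, 2 and 3 of the knockout.

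The allelic effect differed between tissues in 1 of 6405 genes (0.0156%) by edgeR, with 333 at an unadjusted p under 0.05. Of the 13 imprinted calls of epiblast that could be tested, none passed edgeR's test and 2 had an unadjusted p under 0.05. The gene that passed was Sfmbt2, with 20% to 93.3% maternal reads in wild-type epiblast and 0%, 28.6% and 21.4% in the knockout. In ExE it had 0% to 0.199% in the wild type and 1.02%, 0% and 5.01% in the labelled knockout. It rests on 2 to 47 reads per epiblast library, and no gene passed without knockout embryo 1 or 3. With a minimum of 20 reads no gene passed either, and Sfmbt2, with at most 15 reads in wild-type epiblast, was not among those tested.

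**Figure D5:**
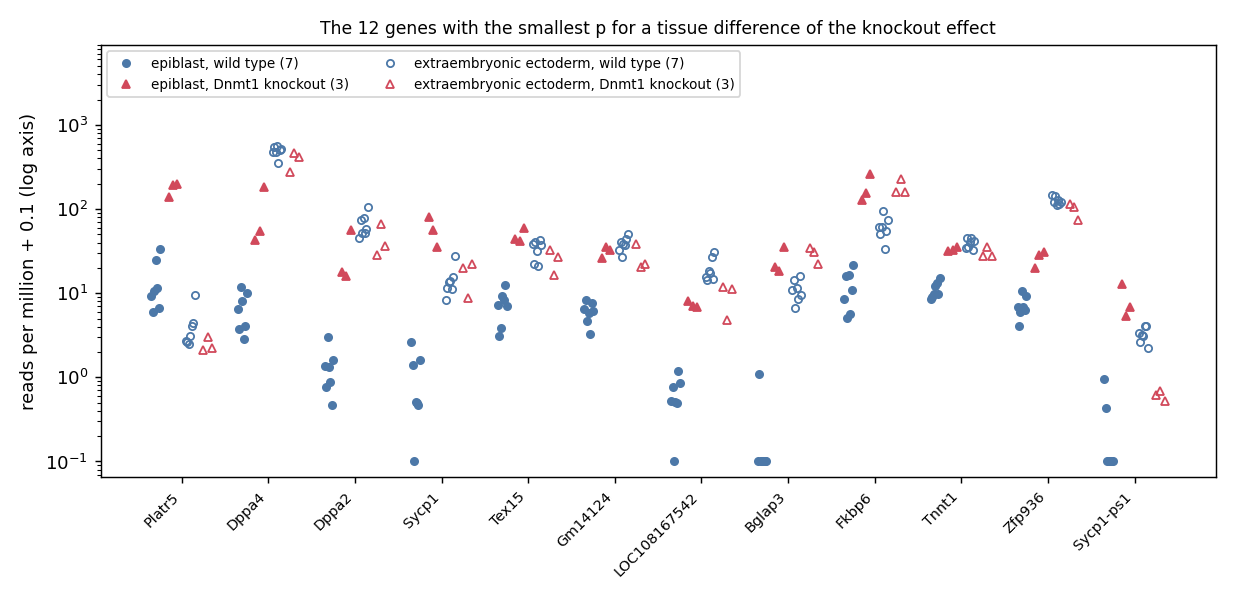
CPM plus 0.1 (log axis) in each epiblast (filled) and ExE (open) library of wild-type (circles) and Dnmt1 knockout (triangles) embryos for the 12 genes with the smallest p for a difference of the knockout effect between tissues. In epiblast the knockout lies above the wild-type range for all 12 genes. In ExE the groups overlap for 8, the labelled knockout lies above the wild type for Bglap3 and Fkbp6, and it lies below for LOC108167542 and Sycp1-ps1.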

How the data were processed

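Epiblast RNA of 10 single embryos was analysed from a deposited table of 30546 genes with mm10 coordinates, of which 29557 are autosomal. Per the deposited column descriptions, the authors gave for each library the count of reads over polymorphisms, an allelic ratio score (0.5 for all CAST, −0.5 for all BDF1) and an allelic significance score, −log10 of a binomial p. The submitters' processing notes name STAR 2.5.0 and HTSeq with mm10, and the set of polymorphisms is not given in the sources used here. The values themselves showed the ratio rounded and the significance score signed and used here from 10 reads on. Allele reads were recovered as the whole number that fits both deposited scores, which matched the significance score within 0.002 for 99.961% of scored values. Where that score was at its limit (5.52% of reads), or a gene had fewer reads, the rounded ratio was used. Reads of overlapping genes, and genes with few polymorphisms, limit what a count can show.

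Total counts were fitted with edgeR 4.0.16 (R 4.3.3) on the 10 libraries, after its filter on low counts and TMM scaling. Printed CPM are counts per 1000000 reads of the library without TMM. Allele counts were fitted with a term per library in genes with at least 10 reads in 3 libraries of each group. The tissue difference was fitted on epiblast and ExE with a term per embryo. All tests were two-sided, with Benjamini-Hochberg adjustment over all genes tested and a threshold of 0.05. Standard errors are the fold change over the square root of the F statistic. DESeq2 1.42.0, limma 3.58.1, other scalings, filters, a sex term and leaving out each library were alternatives. The tests were checked on simulated counts.

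The members and gene lists were chosen with earlier results of these data known, so list counts are not independent evidence. Named genes are Dnmt1, the 12 largest changes per direction among genes past the threshold, without overlap and with at least 10 CPM in the higher group, and up to 4 members per list by p (2 where none passed). For allelic shares they are the imprinted list and the 8 largest changes per direction outside it without overlap, and for tissue differences up to 4 per direction. Some genes that these rules name are not reported here. Other listed genes named were chosen after their values were seen, as were the gene families in the closing section. The X chromosome was left out by the rule of the comparison, and the bisulfite sample of the series was not analysed here.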

Additional observations from a re-analysis of the deposited data

Results flagged for a closer look

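Single embryos lay far from the other wild-type epiblast embryos for 23 of 73 values examined, 14 of them in embryo 8. Chance flags about 1 in 20 groups, but that rate does not hold for genes at 0 reads in most embryos. Dazl, for example, was flagged on 1 read in embryo 7. The values also share embryos, so the count of 23 measures no excess over chance. Embryo 8 had 1311863 reads, reads in 19951 autosomal genes, and summed trophoblast, visceral endoderm and parietal endoderm markers of 138, 1244 and 390.3 CPM. It was also set apart by its CPM of Pdha2 (3.05), Gm4316 (4.57), Tas1r1 (3.05), Gm40674 (417), Gm35775 (64.8) and A730063M14Rik (134). Its maternal share was the one apart for Snhg14 (4.44%), Slc38a4 (6.33%) and Nup155 (32.5%).

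In the other wild-type embryos, embryo 2 was apart for Bglap3 (0.991 CPM) and for the maternal share of Mirg (93.3%), Aff3 (66.7%) and Spin1 (78.3%). Embryo 4 was apart for A530064D06Rik (0.807 CPM), Psmb8 (22.2 CPM), Bst2 (25.4 CPM) and the maternal share of Snrpn-Snurf (0.986%), and embryo 7 for Dazl (0.363 CPM).

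By edgeR's interaction test the knockout effect on total expression differed between epiblast and ExE for 14 genes that the naming rule or a gene list holds. The log2 fold change in epiblast minus that in the labelled ExE was 5.65 for Sycp1, 5.48 for Bglap3, 5.13 for Dppa2, 4.51 for Platr5 and 4.03 for Dppa4. It was 3.37 for Tuba3b, 3.33 for Tuba3a, 3.22 for Tex15, 3.12 for Slc25a31 and 2.79 for Bmp4. It was 2.69 for Ifi35, 2.54 for Tex19.1, 2.42 for Fkbp6 and 2.05 for Lamb1. For the allelic ratio of Sfmbt2 the difference was −9.12 on the log2 scale, fitted with alleles at 0 reads, so that it depends on the prior count and is no bound.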

How the results depend on the processing

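The count of 1386 genes changed in total expression was 637 to 2369 when single embryos were left out, with 269 to 1131 higher and 354 to 1238 lower. On the germline list 13 to 19 rose, on the interferon list 3 to 11 and among p53 targets 2 to 7. With library totals 1191 rose. With 10 reads required in both groups 634 genes rose, 8 of them on the germline list. With all BDF1xCAST epiblast groups in 1 fit 2211 genes passed, 1238 of them higher, and 14 interferon genes rose. With the embryo number as a replicate block 931 genes passed, 311 of them higher, and 62 changed in allelic share. The labels do not say whether a shared number marks a pair of embryos. The correlations of same-numbered embryos were −0.0939, −0.332 and 0.196, and no knockout embryo correlated best with its own number. With 3 knockout embryos these values cannot decide whether same-numbered embryos were handled together. Among named genes without a call the sign of the log2 fold change turned for 3. Dppa3 had −0.39 with the replicate block and −0.041 to 0.42 when single embryos were left out, Dcn −1.48 to 0.15 and Hoxb1 −2.87 to 0.046.

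The count of 65 allelic changes was 36 to 102 when single embryos were left out, 15 to 42 more maternal and 19 to 60 more paternal, with 13 to 17 on the imprinted list. With limma 25 passed, 12 more maternal and 13 more paternal, 11 of them imprinted. With 50 reads required, 10 imprinted genes passed, and with all groups in 1 fit 41 genes became more maternal. The sign of the log2 ratio change turned, without a call, for 4 genes. Commd1 had −0.13 with the replicate block and Ppp1r9a 0.056 with sex as a term and 0.11 with edgeR's newer dispersion method. When single embryos were left out, Ppp1r9a had −0.28 to 0.17, Gab1 −1.09 to 0.27 and Jade1 −0.43 to 0.0086. The newer dispersion method and scaling to the totals of each allele were chosen after seeing the data.

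The 33 genes with a tissue difference became 9 to 17 when knockout embryos were left out, 9 to 15 higher and 0 to 2 lower in epiblast. With 10 reads required in each group they became 8, with 8 higher and 0 lower. The 1 allelic tissue difference became 0 to 2, all more paternal in epiblast, and 0 with a minimum of 20 reads. Of 56 named calls in total expression 35 passed in every alternative in which the gene was tested, as did 15 of 33 allelic ones. None reversed. Not every gene could be tested in each alternative: Dazl, for example, was tested in 17 and Meg3 in 18. The cause of these differences was not tested. For 36 imprinted genes the reads were too few for an allelic test.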

Other observations

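Gene families chosen after their values were seen, and so given without a test, are read against the 7.09% of all tested genes that fell and the 6.93% that rose. Of 8 tested genes for Ndufa subunits of mitochondrial complex I, 6 fell and 0 rose, with a median log2 fold change of −0.91. Of 5 Ndufb genes 3 fell and 0 rose, and of 19 Cox subunit genes 7 fell and 1 rose. Among 43 Mrpl genes of the mitochondrial ribosome, 8 fell and 1 rose. Genes of the cytosolic ribosome had 8 rises and 7 falls among 73, near those shares. Of 21 tested Hist genes, which encode histones, 5 rose and 1 fell.

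Some imprinted genes had too few reads for the allelic test. Cdkn1c, a growth inhibitor gene, was 100% maternal in all 7 wild-type embryos and 33.3%, 75.0% and 92.9% maternal in the knockout, from 24 knockout reads in all. Zrsr1 had 0% to 18.2% maternal reads in the wild type and 40.0%, 66.7% and 85.7% in the knockout, from 30 knockout reads. It overlaps Commd1 on the genome, with 65 reads against 760 of Commd1 over the 10 libraries, so reads may be shared. Plagl1 had 60.0%, 70.6% and 83.3% in the knockout from 43 reads.

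Serpina3m, a serine protease inhibitor gene chosen after its values were seen, had 51.6, 30.7 and 63.1 CPM in the knockout against 0.762 to 15.7 CPM in the wild type. Its maternal share was 7.27%, 2.86% and 6.38% in the knockout and 0% to 77.8% in the wild type. It lies in a cluster of near-identical genes, so its reads are uncertain.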
